A study of Mus musculus with 6 samples.

Results

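The deposited table of circular RNAs (circRNAs) in mouse aorta held 21 entries from the host genes Tulp4, Arhgap32 and Msrb3, out of 10023 entries in all. They were taken as every row whose host gene was one of these 3, with Ensembl identifiers translated to symbols. Tulp4 had 6 entries, Arhgap32 had 10 and Msrb3 had 5. In each gene a single circle held most of the reads, and the genes were picked because these 3 circles were abundant and differed between the diets. The reads of the 3 dominant circles are therefore given as a description without a test. The other 18 entries were not used for this choice, and those with reads in at least 2 aortas were tested. The question was whether the diet difference belonged to the dominant circle or was also found in the other circles of its gene.

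By the study's methods, the aortas came from male ApoE-/- mice on a C57BL/6 background, which lack apolipoprotein E and develop plaques when fed fat. The mice were 6 weeks old at the start. After 12 weeks, 3 aortas were taken from mice on a high-fat diet (HFD) and 3 from mice on a chow diet, which the sample labels call a normal diet. Both diet groups carried the same deletion, so no aorta from a mouse with apolipoprotein E was compared. The study's methods name RNase R, an enzyme that degrades linear RNA, as the means of isolating circRNA. For the sequencing libraries they describe total RNA with ribosomal RNA removed, and do not state there whether RNase R was used. Levels of the linear mRNAs were not analysed here.

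A circRNA forms by back-splicing, in which the splice donor at the end of an exon is joined to the acceptor at the start of the same or an upstream exon. The product has no free ends and is counted by reads that cross the back-splice junction. A host gene can give several circles from the same pre-mRNA, and these may share an acceptor or a donor site. Tulp4 encodes a tubby-like protein with WD40 repeats. Arhgap32 encodes a GTPase activating protein, which speeds the switch of small GTPases to their inactive state. Msrb3 encodes a methionine sulfoxide reductase, an enzyme that repairs oxidized methionine in proteins.

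The HFD aortas had 4694, 5621 and 4875 back-spliced reads and the chow diet aortas had 7585, 7142 and 7476. Because the HFD libraries were smaller, reads are given both as deposited and normalized. Normalized reads were the counts divided by the effective library size from the trimmed mean of M values (TMM) and multiplied by the mean effective library size. The 3 dominant circles held 966 of the 37393 back-spliced reads, or 2.58%, and the other circles of the 3 genes held 132. Of the other 18 entries, 7 had reads in at least 2 aortas and were tested, and 11 had reads in a single aorta.

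The junctions of the dominant circles and of the other circles with at least 20 reads are shown because they are what the reads count. Each is written 5′ to 3′ from the GENCODE vM21 transcripts. The last 15 bases of the donor exon are in lower case and the first 15 bases of the acceptor exon are in capitals.
circRNA2611 (Tulp4): ggccacaacagtgagAGTTGTAAGAGTCCA
circRNA2612 (Tulp4): cccgatgaccagcagAGTTGTAAGAGTCCA
circRNA2169 (Arhgap32): ccatggctttgaaagGATGCTGTTTCAGCA
mmu_circ_0001765 (Arhgap32): cagtgccaaaaccagGGCAAGAGTTGGATT
mmu_circ_0001764 (Arhgap32): aagcatggatttcagGGCAAGAGTTGGATT
circRNA2589 (Msrb3): ttgactctggttcagGGTCATGTAGGGATA
Both Tulp4 junctions have the same acceptor side and differ in the donor side. The same holds for mmu_circ_0001765 and mmu_circ_0001764 of Arhgap32, which share no site with circRNA2169.

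The dominant Tulp4 circle, circRNA2611, lies on chromosome 17 from 6137212 to 6139156 on the plus strand of GRCm38. Its start lay 1 base inside exon 3 of the transcript Tulp4-210, which runs from 6137211 to 6138792. Its end was that of exon 1 of Tulp4-201, which runs from 6138148 to 6139156. The exons overlap by 645 nt, and the stretch is 1946 nt long if nothing is spliced out of it. Whether an intron is removed inside the circle cannot be seen from the junction. The start codon of Tulp4-201, at 6138905, lies inside the circle, 1694 bases after its first base. The acceptor of the circle belongs to another annotated transcript than the donor. The deposited exon list of this entry lies outside its own coordinates, so it was not used.

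The dominant Arhgap32 circle, circRNA2169, lies on chromosome 9 from 32246447 to 32250787 on the plus strand. It joins exon 18 of Arhgap32-203 back to exon 14. Its 5 exons measure 83, 108, 146, 196 and 146 nt and are coding over their whole length. The intron before exon 14 has 384 bp. It was the shortest upstream intron among the 44 exonic entries with at least 60 reads and a measured intron, and 0.942% of the tested exonic entries had a shorter one, against a median of 11603 bp. The whole circle has 679 nt. Exon 18 followed by exon 14 is shown, as the circle joins them, because this stretch sets the circle apart from the linear mRNA. The 15 bases on each side of the junction are in capitals.
circRNA2169: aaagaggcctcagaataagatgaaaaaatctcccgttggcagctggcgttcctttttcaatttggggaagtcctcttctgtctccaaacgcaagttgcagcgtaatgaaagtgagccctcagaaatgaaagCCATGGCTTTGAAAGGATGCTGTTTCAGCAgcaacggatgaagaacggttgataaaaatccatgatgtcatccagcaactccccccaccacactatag

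The dominant Msrb3 circle, circRNA2589, lies on chromosome 10 from 120825109 to 120852092 on the minus strand. It joins exon 5 of Msrb3-201 back to exon 3, again with the lower coordinate 1 base inside the exon. Its 3 exons measure 109, 78 and 29 nt and are coding over their whole length. At 216 nt it was the shortest of the 43 exonic entries with at least 60 reads and a spliced length, whose median was 589 nt. The introns before and after it have 18942 and 33608 bp. Of the 44 exonic entries with at least 60 reads and a measured intron, 40.9% had a shorter upstream intron and 72.7% a shorter downstream one. The capitals mark the 15 bases on each side of the junction.
circRNA2589: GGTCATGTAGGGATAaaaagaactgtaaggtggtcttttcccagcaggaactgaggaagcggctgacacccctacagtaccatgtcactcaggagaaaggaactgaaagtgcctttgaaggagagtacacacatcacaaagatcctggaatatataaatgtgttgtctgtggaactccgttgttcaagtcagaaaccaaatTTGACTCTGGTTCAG
Its length is a multiple of 3, and no stop codon was met in the frame of the host protein over 3 turns. circRNA2169 has a length that is not a multiple of 3, and its first stop codon in the host frame came at position 703, in the second turn. Both are statements on sequence, and translation was not measured.

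None of the 3 dominant circles held a match to the seed of the 3 miRNAs that the study names, searched on the transcript strand and across the junction. The motifs were GCACTTT for miR-17-5p, CTACCTC for let-7b-5p and GCCAAGG for miR-212-5p. Among the tested circles within 20% of the same length, 12.7%, 14.7% and 27.5% held these motifs for the Tulp4 circle, taken as unspliced. The shares were 4.96%, 5.92% and 10.1% for the length of circRNA2169 and 3.21%, 1.28% and 1.92% for that of circRNA2589. The absence of a match says only that these letters are not in the circle.

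**Figure D1:**
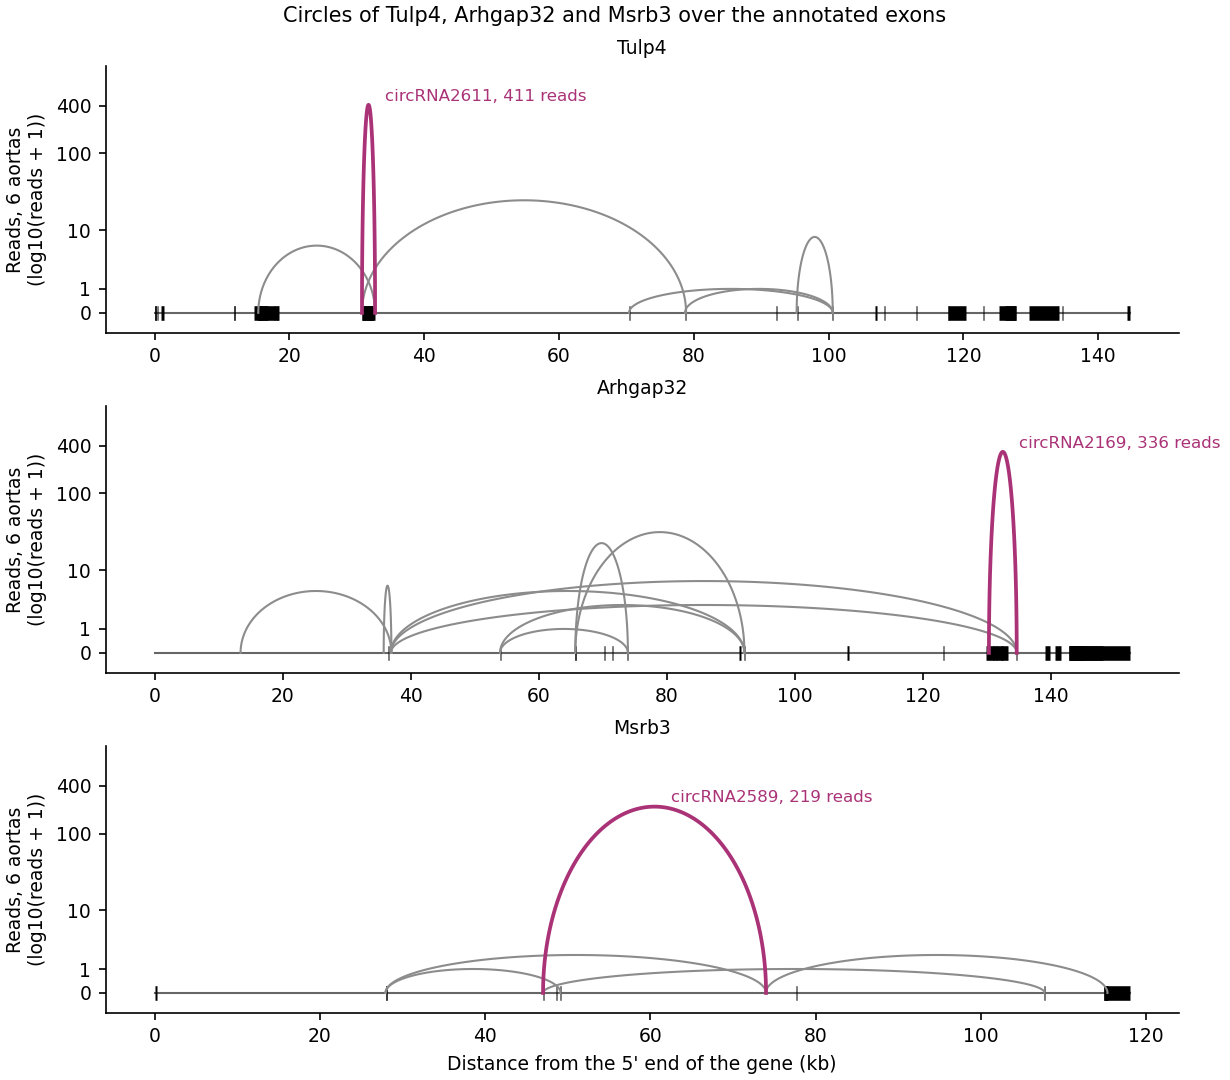
Circles of Tulp4, Arhgap32 and Msrb3 drawn as arcs over the annotated exons (black), with the distance from the 5′ end of the gene in kb on the horizontal axis. The height of an arc gives its reads over the 6 aortas on a log10(reads + 1) scale, and the dominant circles (purple) reach 411, 336 and 219 reads, against at most 32 for any other circle (grey).

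The circle of Tulp4 was more abundant on the HFD, and those of Arhgap32 and Msrb3 were less abundant. By total reads circRNA2611, circRNA2169 and circRNA2589 ranked 2, 3 and 5 of all entries. These values chose the genes and are given without a test.

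circRNA2611 of Tulp4 had 93, 103 and 64 reads in HFD-fed mice and 66, 37 and 48 in chow diet-fed mice. As deposited, the lowest HFD aorta lay just under the highest chow diet aorta. Normalized, the circle had 96.7 ± 16.8 reads in HFD-fed mice and 45.5 ± 14.0 in chow diet-fed mice (SD, n = 3 each), and the diets did not overlap. The log2 fold change was 1.09 (SE 0.18). Of the 49 entries with at least 60 reads, 8 had a log2 fold change above 0, and that of circRNA2611 was the highest.

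circRNA2169 of Arhgap32 had 21, 48 and 23 reads in HFD-fed mice and 97, 65 and 82 in chow diet-fed mice. HFD replicate 2 stood highest among the HFD aortas, and it was still below every chow diet aorta. The normalized reads were 33.7 ± 13.1 and 73.4 ± 15.3 (SD, n = 3 each), with a log2 fold change of −1.12 (SE 0.21). Without HFD replicate 2 the log2 fold change was −1.55.

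circRNA2589 of Msrb3 had 26, 22 and 9 reads in HFD-fed mice and 70, 46 and 46 in chow diet-fed mice. The diets did not overlap before or after normalization. The normalized reads were 21.2 ± 9.74 and 48.9 ± 13.7 (SD, n = 3 each), with a log2 fold change of −1.20 (SE 0.29). The log2 fold changes of circRNA2169 and circRNA2589 ranked 46 and 47 of the 49 entries with at least 60 reads, counted from the highest, and the median of these entries was −0.28. Over all entries tested, 2.54% lay above the chow diet in every HFD aorta and 4.13% lay below it, and nothing is read from this for circles chosen on the contrast.

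Ratios of reads taken within a library, which need no normalization, describe the same reads. The circles were picked for their diet difference in opposite directions, so these ratios are fixed by the choice and are no further support. Reads of circRNA2611 over those of circRNA2169 were 4.43, 2.15 and 2.78 in HFD-fed mice and 0.680, 0.569 and 0.585 in chow diet-fed mice. Over those of circRNA2589 they were 3.58, 4.68 and 7.11 in HFD-fed mice and 0.943, 0.804 and 1.04 in chow diet-fed mice. The Tulp4 circle thus outnumbered the other two in every HFD aorta, and in the chow diet aortas the reads of circRNA2611 and circRNA2589 were nearly equal. The ratio of circRNA2169 to circRNA2589 overlapped between the diets, at 0.808, 2.18 and 2.56 in HFD-fed mice and 1.39, 1.41 and 1.78 in chow diet-fed mice.

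The most abundant circle of the table, mmu_circ_0001704 of Nfix with 707 reads, gives the same reads on a scale within each library. This circle had 97, 98 and 87 reads in HFD-fed mice and 134, 127 and 164 in chow diet-fed mice, without overlap as deposited. The ratios therefore also carry any diet difference of the Nfix circle itself. Reads of circRNA2611 per read of the Nfix circle were 0.959, 1.05 and 0.736 in HFD-fed mice and 0.493, 0.291 and 0.293 in chow diet-fed mice. For circRNA2169 they were 0.216, 0.490 and 0.264 against 0.724, 0.512 and 0.500, with HFD replicate 2 close to the chow diet. For circRNA2589 they were 0.268, 0.224 and 0.103 against 0.522, 0.362 and 0.280. The diets did not overlap in any of these 3 ratios, by narrow margins for circRNA2169 and circRNA2589, and nothing is read from this either, since the numerators are the reads that chose the circles.

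On the scale of the deposited SRPBM, back-spliced reads per depth of the library, the circles stood in the same order as by normalized reads within each diet. circRNA2611 had 1474 ± 325 in HFD-fed mice and 697 ± 194 in chow diet-fed mice (SD, n = 3 each). circRNA2169 had 519 ± 241 and 1128 ± 215, and circRNA2589 had 324 ± 152 and 747 ± 176. On the chow diet circRNA2169 had the highest mean and the means of circRNA2611 and circRNA2589 differed by less than their SDs. On the HFD circRNA2611 had the highest level, while circRNA2169 and circRNA2589 differed by less than the SD of circRNA2169.

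The other circles of Tulp4 held 41 reads, 26 in HFD-fed mice and 15 in chow diet-fed mice. They were 10, 4 and 12 in HFD-fed mice and 8, 0 and 7 in chow diet-fed mice, so the diets overlapped. The normalized sum was 10.1 ± 5.41 in HFD-fed mice and 4.49 ± 3.94 in chow diet-fed mice (SD, n = 3 each). The log2 fold change of 1.12 (SE 0.66) had the direction of that of circRNA2611. Without chow diet replicate 2, which had no reads of these circles, it was 0.50, and that of circRNA2611 was 0.87. With all 6 aortas the sum did not pass the test (edgeR quasi-likelihood, adjusted p = 0.596), with a 95% interval from −0.17 to 2.41. A two-sided exact permutation test of the sums gave p = 0.3, where 3 aortas against 3 allow no p under 0.1.

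Most of these reads came from circRNA2612, which has the acceptor of circRNA2611 and ends at exon 3 of Tulp4-209, with 25 reads. It had 9, 3 and 5 reads in HFD-fed mice and 4, 0 and 4 in chow diet-fed mice, a log2 fold change of 1.39 (SE 0.99, edgeR adjusted p = 0.577), or 0.77 without chow diet replicate 2 and 0.90 without HFD replicate 1. HFD replicate 2 was the lowest of the HFD aortas for this circle and, by reads as deposited, the highest for circRNA2611. circRNA9001, which ends at the donor of circRNA2611, had 6 reads, all in HFD replicate 3. The 3 Tulp4 circles with neither site of circRNA2611 had 1, 1 and 1 reads in HFD-fed mice and 4, 0 and 3 in chow diet-fed mice. Of these, circRNA539, which joins exon 6 of Tulp4-209 back to exon 5, had 8 reads, 1 of them on the HFD, and did not pass the test (edgeR adjusted p = 0.778). Circles that use the acceptor of circRNA2611 held 436 of the 452 Tulp4 reads. The grouping by splice sites was chosen after the values were seen, so no test was made on it.

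The other circles of Arhgap32 held 85 reads, 25 in HFD-fed mice and 60 in chow diet-fed mice. They were 4, 13 and 8 in HFD-fed mice and 21, 21 and 18 in chow diet-fed mice, without overlap. HFD replicate 2 was the highest HFD aorta here as it was for circRNA2169. The normalized sum was 9.17 ± 4.29 in HFD-fed mice and 18.1 ± 2.10 in chow diet-fed mice (SD, n = 3 each). The log2 fold change was −0.95 (SE 0.46), with a 95% interval from −1.85 to −0.057. It was −0.63 without HFD replicate 1. The edgeR quasi-likelihood test gave an adjusted p of 0.596. Its unadjusted p was under 0.05, and the fold change was under the size that a call asks for. The unadjusted p was above 0.05 with DESeq2, library size alone or the replicate block, and when any aorta other than HFD replicate 2 was left out. The exact permutation test gave p = 0.1, the smallest it can give. Over all host genes, the other circles lay below the chow diet in every HFD aorta in 5.83% and above it in 2.75%.

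Of these circles, mmu_circ_0001765, exons 6 to 10 of Arhgap32-203, had the most reads, with 1, 5 and 4 in HFD-fed mice and 3, 10 and 9 in chow diet-fed mice. The diets overlapped, and the log2 fold change was −0.81 (SE 0.91, edgeR adjusted p = 0.951), or −0.39 without HFD replicate 1. mmu_circ_0001764, exons 6 to 9, had 2, 2 and 1 reads in HFD-fed mice and 8, 7 and 3 in chow diet-fed mice. Its diets did not overlap, as in the 4.13% of entries given before, and the log2 fold change was −1.49 (SE 1.10, edgeR adjusted p = 0.606). Both start at exon 6, and their reads together were 3, 7 and 5 against 11, 17 and 12.

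The 7 Arhgap32 circles that end at exon 10 or before share no exon with circRNA2169. They had 4, 13 and 8 reads in HFD-fed mice and 14, 21 and 15 in chow diet-fed mice, or 9.17 ± 4.29 and 15.0 ± 3.56 normalized (SD, n = 3 each), without overlap in the reads as deposited and with overlap in the normalized reads. Among them, mmu_circ_0015522, exons 3 to 4, had 3, 3 and 0 reads on the chow diet and none on the HFD (edgeR adjusted p = 0.577). mmu_circ_0001762, exons 4 to 10, went the other way, with 0, 2 and 3 reads in HFD-fed mice but none in chow diet-fed mice (edgeR adjusted p = 0.577). mmu_circ_0015520, exons 2 to 4, had 1, 1 and 0 reads against 0, 0 and 3 (edgeR adjusted p = 0.951). circRNA8141, exons 5 to 10, had 3 reads in HFD replicate 2, and mmu_circ_0015524, exons 5 to 9, had 1 read in chow diet replicate 2.

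A long Arhgap32 circle from exon 4 to exon 18, which ends at the donor of circRNA2169, was listed as 2 entries whose starts are 1 base apart. circRNA2637 had 7 reads, all in chow diet replicate 1, and circRNA5780 had 3, all in chow diet replicate 3. Neither was tested, since each had reads in 1 aorta. Summed, they had 0, 0 and 0 reads in HFD-fed mice and 7, 0 and 3 in chow diet-fed mice and met the criteria of a call (edgeR, adjusted p = 0.606). Since the sum had reads on 1 diet alone, it could only be tested as lower on the HFD, and nothing is read from its direction. The table held 475 such pairs, and in 468 of them no aorta had reads of both. The dominant circles had no partner of this kind.

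The other circles of Msrb3 held 6 reads, too few to answer the question. They were 1, 0 and 0 in HFD-fed mice and 0, 1 and 4 in chow diet-fed mice. The log2 fold change of −1.67 had an SE of 1.74 (edgeR adjusted p = 0.961; exact permutation p = 0.7) and a 95% interval from −5.08 to 1.73, so neither a rise nor a fall was detectable at this depth. The value was −0.22 without chow diet replicate 3 and −3.72 without HFD replicate 1. circRNA6008 and circRNA6009 had 2 reads each in chow diet replicate 3, circRNA3157 had 1 in chow diet replicate 2 and circRNA6347 had 1 in HFD replicate 1. None of the 4 reached a second aorta. Msrb3 thus gave nearly all of its back-spliced reads as circRNA2589.

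None of the 7 other circles tested in the 3 genes was called, which took an absolute log2 fold change above 1 with an unadjusted p under 0.05, where 4.06% of the 2564 entries tested were (1.29% higher and 2.77% lower on the HFD). Calls were gained by mmu_circ_0001764 without chow diet replicate 3, by mmu_circ_0001762 without HFD replicate 1, and by the circle of exons 4 to 18 when its 2 entries were summed. The last 2 of these have reads on 1 diet alone, so the filter fixed their direction. With all 6 aortas and the entries as deposited, the p-values of the 7 circles ran from 0.0646 to 0.908 and their adjusted p-values from 0.577 to 0.951 (edgeR quasi-likelihood), while 0.156% of all entries had an adjusted p under 0.05. Of the 5 in Arhgap32, mmu_circ_0015522 and mmu_circ_0001762 have reads on 1 diet alone, which fixed their direction. The other 3 had a log2 fold change below 0, of which that of mmu_circ_0015520 (−0.22, SE 1.94) turned positive in 4 of 14 alternatives, and in Tulp4, 1 of 2 was above 0. Summed per gene, 0 of the 3 were called, against 5.08% of 1201 host genes (1.58% higher and 3.5% lower on the HFD). The Tulp4 sum was called with library size alone (1.36), and the Arhgap32 sum without HFD replicate 2 (−1.39). No host gene reached an adjusted p under 0.05 for its other circles (edgeR, 0.0%). At an unadjusted p under 0.05 there were 64, or 5.33%. Of the alternatives, library size alone gave 1 gene at an adjusted p under 0.05, and the others, DESeq2 included, gave 0.

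**Figure D2:**
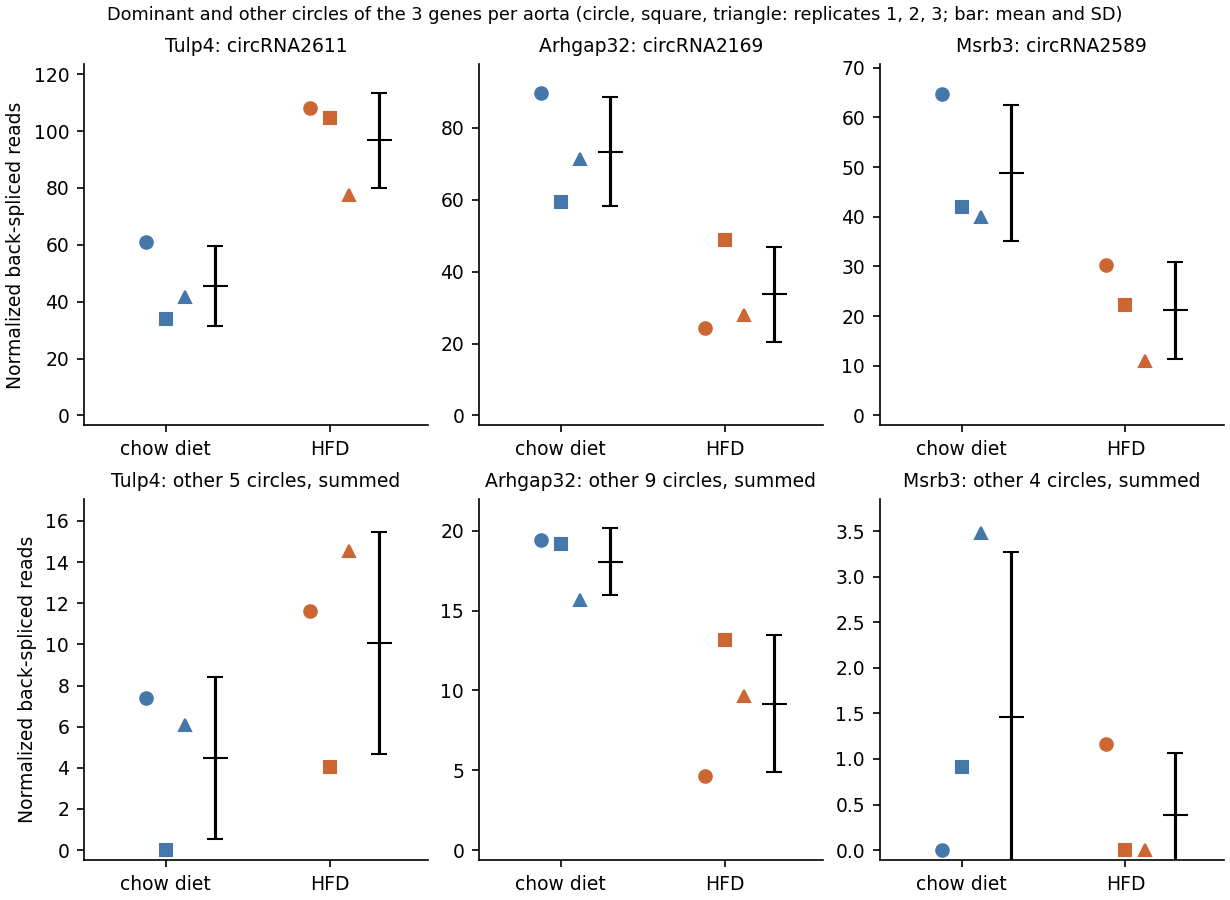
Normalized back-spliced reads (vertical axes, starting at about 0) of the dominant circle of each gene (upper row) and of its other circles summed (lower row) in the chow diet and HFD aortas, with the mean and SD of 3 aortas as bars. The dominant circles and the other circles of Arhgap32 do not overlap between the diets, and the other circles of Tulp4 and Msrb3 do.

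Set beside each other, the log2 fold changes of the dominant and the other circles differed by less than their error in each gene. The dominant circle minus the others was −0.036 (SE 0.68) in Tulp4, −0.16 (SE 0.50) in Arhgap32 and 0.47 (SE 1.76) in Msrb3. These errors leave room for differences of 1 on the log2 scale or more in all 3 genes. A difference between the circles of a gene was therefore not detectable at this depth, which does not show that they changed alike.

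The share of the dominant circle in the back-spliced reads of its gene gave the same comparison within each library. In Tulp4 it was 90.3%, 96.3% and 84.2% in HFD-fed mice and 89.2%, 100% and 87.3% in chow diet-fed mice. In Arhgap32 it was 84.0%, 78.7% and 74.2% against 82.2%, 75.6% and 82.0%. In Msrb3 it was 96.3%, 100% and 100% against 100%, 97.9% and 92.0%. The diets overlapped in all 3 genes. The means were 90.3 ± 6.03 and 92.2 ± 6.86 for Tulp4, 79.0 ± 4.91 and 79.9 ± 3.77 for Arhgap32, and 98.8 ± 2.14 and 96.6 ± 4.14 for Msrb3 (percent, SD, n = 3 each). In each gene the means differed by less than the larger of the SDs, or by about as much as the smaller one in Msrb3.

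Over the 6 aortas the dominant circle held 90.9% of the reads of Tulp4, 79.8% of those of Arhgap32 and 97.3% of those of Msrb3. The median over the 532 host genes with at least 5 entries was 40.0%, with quartiles of 28.8% and 55.1%. The share was lower than in Tulp4, Arhgap32 and Msrb3 in 99.1%, 95.9% and 99.8% of these genes. Abundance was part of the choice of the circles, so this is a description.

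How often the dominant and the other circles of a gene move together was counted in the other host genes. In 798 host genes tested for both, the signs of the log2 fold changes were the same in 436, or 54.6%. Most of these genes have few reads. In the 19 genes with at least 60 reads in the dominant circle and at least 25 in the others, the signs were the same in 13. The median log2 fold changes of the dominant and the other circles were −0.22 and −0.12 in the 19 genes. They were −0.34 and −0.15 in the 798. With both below 0, equal signs are frequent without any link, so no link is read from these counts. Pearson's r between the log2 fold changes was 0.23 in the 19 genes and 0.10 in the 798. In the 19 genes the log2 fold changes differed by a median of 0.36, a size below the SE of the difference in each of the 3 genes. The read limits were chosen after the values were seen. All circles of an aorta share its library and its depth, so genes are not independent.

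**Figure D3:**
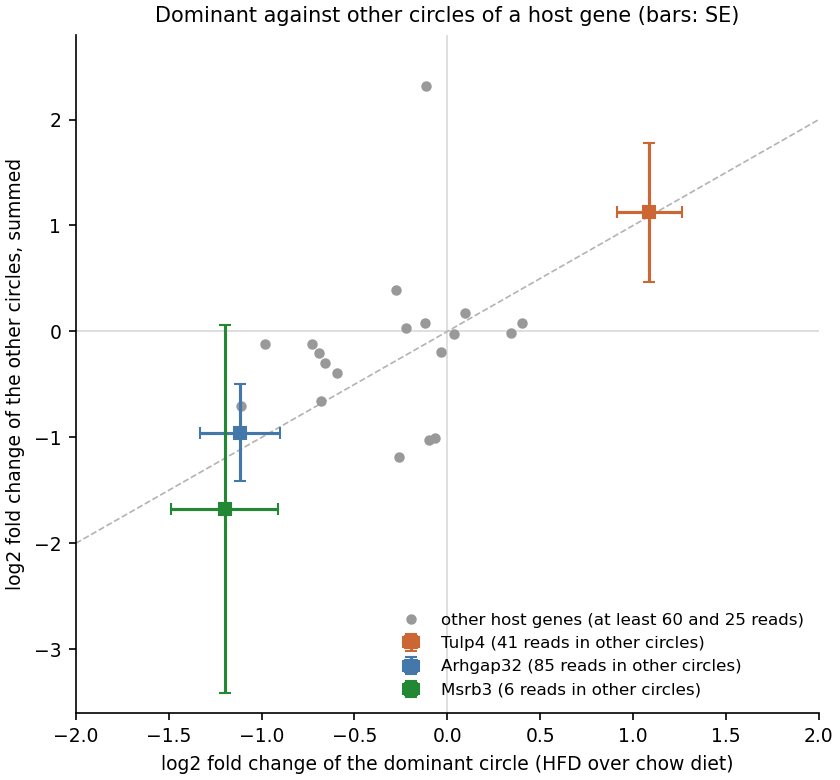
Log2 fold change (HFD over chow diet) of the dominant circle (horizontal axis) and of the other circles summed (vertical axis) for Tulp4, Arhgap32 and Msrb3 with SE bars, and for 19 other host genes as grey points. The SE bars of the 3 genes reach the dashed line of equal change, the grey points lie on both sides of it without bars, and the bar of Msrb3, with 6 reads in its other circles, crosses 0.

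The abundant circles whose normalized reads varied most like those of circRNA2611 over the 6 aortas were mmu_circ_0000823 of Slc8a1, with r = 0.70, and mmu_circ_0000735 of Crebrf, with r = 0.64. The third was circRNA2466 of Arhgap12, with r = 0.38. For circRNA2169 they were mmu_circ_0001829 of Rasa2 (r = 0.91), mmu_circ_0000144 of Utrn (r = 0.86) and mmu_circ_0002977 of Asb3 (r = 0.84). For circRNA2589 they were mmu_circ_0001165 of Pde5a (r = 0.93), the intergenic circRNA2495 (r = 0.87) and circRNA2736 of Nox4 (r = 0.81). Each r is Pearson's over 6 aortas among 48 entries with at least 60 reads, and since the aortas fall into 2 diets, it includes the difference between the diets. The mmu_circ_0000823 circle of Slc8a1, a sodium-calcium exchanger, had 20, 29 and 40 reads in HFD-fed mice and 27, 12 and 21 in chow diet-fed mice.

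Of the other 4 tubby-like genes, only Tub had a circle, with 1 read, and of the other 3 methionine sulfoxide reductase genes, only Msrb1 had one, with 3 reads. Among the other Arhgap genes, the circle with the most reads, circRNA2466 of Arhgap12, had 12, 25 and 11 reads in HFD-fed mice and 22, 25 and 0 in chow diet-fed mice, a log2 fold change of 0.30 (SE 0.47).

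The summed circles of marker genes of cells of the vessel wall also stood apart between the diets in some lists. Circles of 11 of 16 smooth muscle genes summed to 18.2 to 29.1 normalized reads in HFD-fed mice and 47.4 to 68.4 in chow diet-fed mice, without overlap, as for circRNA2169 and circRNA2589. Cnn1, Des, Ldb3, Myl9 and Tagln had no circle. Circles of 10 of 15 leukocyte genes summed to 11.6 to 24.3 and 7.83 to 12.0, and those of 5 of 10 endothelial genes to 4.06 to 9.68 and 1.82 to 6.09, both with overlap. Cd68, Cd74, Cybb, Itgax and Spi1 had none among the leukocyte genes, nor did Cdh5, Eng, Flt1, Kdr and Tie1 among the endothelial genes. Circles of 3 of 6 fibroblast genes, with Col1a2, Lum and Pdgfra at 0, summed to 1.16 to 6.05 in HFD-fed mice and 0 to 0.870 in chow diet-fed mice. As deposited, the fibroblast sums were 1, 5 and 5 reads in HFD-fed mice and 0, 0 and 1 in chow diet-fed mice. The diets thus met at 1 read and were apart only after normalization. Circles of 4 of 10 adipocyte genes, with Adipoq, Fabp4, Lep and Plin1 among those at 0, summed to 6.09 to 8.15 and 12.2 to 22.8. Those of 4 of 13 striated muscle genes overlapped, at 1.01 to 10.9 and 1.82 to 6.47. The part of these cell types in the diet difference of the 3 genes was not tested. In whole aorta, fewer cells of a type and less RNA per cell cannot be told apart.

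**Figure D4:**
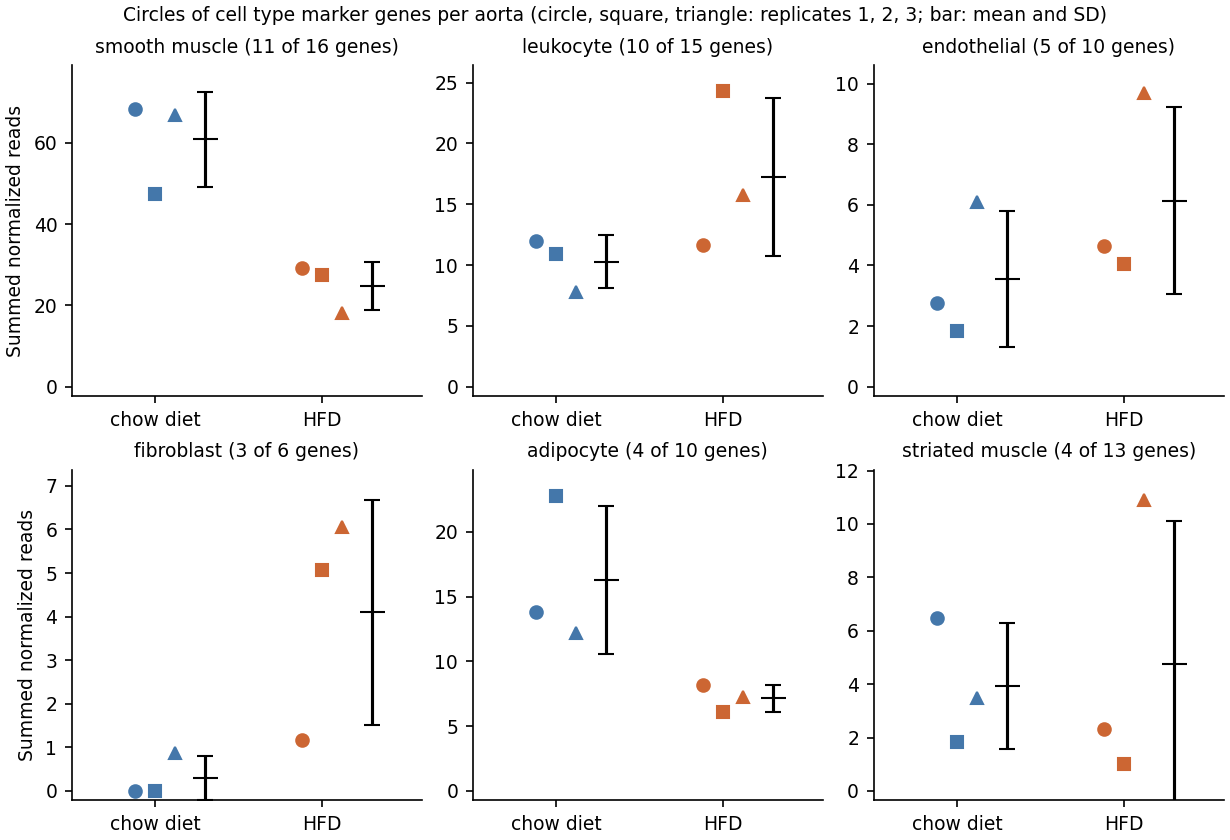
Summed normalized back-spliced reads of the circles of marker genes of 6 cell types (vertical axes, starting at about 0) in the chow diet and HFD aortas, with the mean and SD of 3 aortas as bars. The smooth muscle sums, 18.2 to 29.1 in HFD-fed mice and 47.4 to 68.4 in chow diet-fed mice, do not overlap, and neither do the adipocyte sums. The fibroblast sums are apart only after normalization, since HFD replicate 1 and chow diet replicate 3 each had 1 read as deposited.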

How the data were processed

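circRNA was measured in 3 HFD and 3 chow diet aortas, grouped by their labels. The authors removed adaptors with Cutadapt and used TopHat-Fusion on the reads left unmapped to find back-splices, and CIRCexplorer with CIRI to assemble circRNAs. How the callers' outputs were joined, the versions and the genome build are not given in the sources used here. The splice sites of the entries were matched to GENCODE vM21 (GRCm38). The deposited counts are raw back-spliced reads per entry and aorta. SRPBM, the other deposited signal, is the counts divided by a depth of each library and scaled. Columns with the authors' own fold changes and p-values were not used.

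The members and gene lists were chosen with earlier results of these data known. Counts were tested with edgeR 4.0.16 (glmQLFit, glmQLFTest, TMM, R 4.3.3) for the 2564 entries with reads in at least 2 of 6 aortas, with Benjamini-Hochberg adjustment over all of them. For each host gene the entry with the most reads, and any entry 1 base from it, was left out, the rest were summed, and the sums were tested in the same way over 1201 genes, with the library sizes of the whole table. A call needed an absolute log2 fold change above 1 with an unadjusted p under 0.05, as in the study. Intervals of a log2 fold change rest on the normal distribution. Log2 fold changes of circles with no reads in a diet were not printed. The code was tested on simulated counts.

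Named are the dominant circles, every member with at least 10 reads, the rest by their counts, the 3 most similar abundant entries, and the most abundant entries of related genes. The calls among relatives of Arhgap32 are not reported here. The single-aorta circles and circRNA539 were named with their values already known. Libraries held 4694 to 7585 back-spliced reads. The alternatives were DESeq2 1.42.0, library size alone, the authors' depth, limma 3.58.1 on log2 SRPBM plus 13.6, other filters, entries 1 base apart summed, exonic entries only, a replicate block and each aorta left out. The labels do not say whether an aorta sample was pooled from several mice, and p-values measure the spread between these samples.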

Additional observations from a re-analysis of the deposited data

How the results depend on the processing

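The log2 fold change of the dominant circle kept its sign under all 15 alternatives, between 0.87 and 1.34 for Tulp4, −1.55 and −0.88 for Arhgap32 and −1.51 and −0.81 for Msrb3. With other circles, library size alone gave 1.36 for Tulp4 (called by edgeR), and without each aorta in turn the values ran from 0.50 to 1.60. For Arhgap32 they ran from −1.39 to −0.63, and only without HFD replicate 2 was the sum called (−1.39). The unadjusted p for Arhgap32 was above 0.05 with DESeq2 (−0.77), library size alone (−0.73), the replicate block (−1.01) and in the 5 other fits that leave out an aorta. For Msrb3 they ran from −3.72 to −0.22. The difference in the share of the dominant circle, HFD minus chow diet, ran from −4.90 to 2.02 percentage points in Tulp4, −3.49 to 1.42 in Arhgap32 and −0.17 to 3.83 in Msrb3. mmu_circ_0015520 changed sign, to 0.74 with the replicate block, 0.093 with limma on SRPBM, 0.33 without HFD replicate 3 and 2.75 without chow diet replicate 3, the highest of a range from −0.81 to 2.75. mmu_circ_0001764 was called only without chow diet replicate 3 (−1.81), and mmu_circ_0001762, with no reads on the chow diet, only without HFD replicate 1. The cause was not tested.

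Of all entries, 104 were called. DESeq2 called 23, a minimum of 10 reads gave 49 of 608 tested, a higher share than the 104 of 2564, and leaving out an aorta gave 57 to 117. Of the other circles per host gene, 61 were called, against 14 with DESeq2, 29 of 319 with a minimum of 10 reads (61 of 1201 otherwise) and 33 to 73 without an aorta. Calls were 33 higher and 71 lower with TMM but 40 and 43 with library size alone, which moved the median log2 fold change from −0.18 to 0.041. For the other circles per host gene they were 19 higher and 42 lower with TMM and 33 and 28 with library size alone, and without HFD replicate 3 they were 47 higher and 26 lower. The replicate numbers do not pair the samples, since the deviations of same-numbered aortas correlated at −0.14, −0.15 and −0.043. With the replicate number as a block, 30 entries and 19 sums of other circles were called.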
